A study of Mus musculus with 6 samples.

Results

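A set of 10 long noncoding RNA genes, chosen by name, was followed in the colon epithelium of mice with and without *Zfp90* in that tissue. The set held 2 RNAs that stay in the nucleus (*Neat1* and *Malat1*), 6 host genes of small nucleolar RNAs (*Gas5*, *Snhg1*, *Snhg5*, *Snhg6*, *Snhg8* and *Snhg12*) and 2 imprinted RNAs (*H19* and *Kcnq1ot1*), among 52550 genes listed and 8931 that the annotation classes as long noncoding. Control mice were *Zfp90*fl/fl littermates, which carry loxP-flanked *Zfp90*, and *Zfp90*ΔIEC mice lacked exon 4 and the 3′ UTR of the gene in cells in which the *Villin* promoter drives Cre, the intestinal epithelium. Males, C57BL/6 and 6 to 8 weeks of age by the sample labels (C57BL/6 J in the methods), received 10 mg/kg azoxymethane (AOM, a carcinogen) and, after 5 days, 3 cycles of 7 days of dextran sulfate sodium (DSS, which injures the colon) at 2% by the labels and 14 days of water. The epithelium was released with 2.5 mM EDTA and 1 mM DTT on day 80 and sequenced in 3 mice of each genotype. There was no group without AOM-DSS or without inflammation, and since mice of each genotype were housed apart, a cage effect and a genotype effect cannot be told apart.

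Long noncoding RNAs are transcribed and often spliced like mRNAs but are not known to encode a protein. *Malat1* is found in nuclear speckles, domains rich in splicing factors, and *Neat1* is the scaffold RNA of paraspeckles, nuclear bodies that form only where its long isoform is made. The host genes carry small nucleolar RNAs (snoRNAs, the guides for chemical modification of ribosomal RNA) in their introns, and their spliced exons are exported and mostly removed by nonsense-mediated decay, a pathway that depends on translation. *H19* and *Kcnq1ot1* belong to neighbouring imprinted domains and are expressed from the maternal and the paternal chromosome, respectively.

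Expression was deposited as FPKM, a fragment count scaled to the length of the transcript (kilobases) and to the depth of the library. Comparing levels between genes also relies on the gene models and on how RNA was selected, and the paper's methods do not state the selection. Depth was estimated at 26.3 to 28.7 M fragments per sample. *Zfp90* itself lay between 0.490 and 0.630 FPKM in the *Zfp90*fl/fl mice and between 0.0846 and 0.195 FPKM in the *Zfp90*ΔIEC mice, without overlap. At these levels *Zfp90* was below the filter for testing, and in the limma test without a filter its adjusted p was 0.123. Even the deleted gene was thus not called. The genotype field of *Zfp90*ΔIEC replicates 2 and 3 names other gene numbers, and they were grouped by their titles. All 10 epithelial markers were measured, with a sum of 11120 to 17520 FPKM, whereas 1 of 12 stromal and 3 of 14 leukocyte markers reached the filter for testing.

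Of the 10 RNAs, 8 were abundant enough to be tested (at least 1 FPKM in at least 3 samples), and 0 of these 8 passed an adjusted p under 0.05 between the genotypes (limma on log2(FPKM + 1) with Benjamini-Hochberg adjustment, 0.199% of 11564 genes tested passed, and 0.406% with the replicate number as a block, where again 0 of the 8 did). *Gas5* was the lone tested member whose groups did not overlap, with a mean that was 13.0% lower in *Zfp90*ΔIEC mice. *Malat1* and *Neat1* had higher means in *Zfp90*ΔIEC mice, and in both the difference rested on 1 mouse. *H19* was listed at 0 in 5 of 6 mice and *Kcnq1ot1* stood below 0.1 FPKM in all 6, so neither can be called abundant in this epithelium, although *Kcnq1ot1* too was lower in *Zfp90*ΔIEC mice without overlap.

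The RNAs spanned a wide range of levels. By mean FPKM over the 6 mice, *Malat1* ranked 4 among all annotated long noncoding genes, below *AY036118*, *Gm10076* and *Gm42418*, and *Neat1* ranked 15. *Gas5* followed at rank 22, *Snhg8* at 32, *Snhg1* at 33, *Snhg5* at 40, *Snhg12* at 56 and *Snhg6* at 139. In this order the highest *Gas5* value (17.3 FPKM) stayed below the lowest *Neat1* value (18.3 FPKM). *Snhg8* and *Snhg1* had overlapping ranges, as did *Snhg8* and *Snhg5*, while *Snhg12* and *Snhg6* each lay below the range of the gene before. *Kcnq1ot1* ranked 2018 and *H19* 3081. These ranks follow the gene types of the annotation, which count processed transcripts as long noncoding. *Ifi30* at rank 6 and *Cct6a* at rank 11 are classed so. The ranks, those of *AY036118*, *Gm10076* and *Gm42418* included, thus rest on the annotated type and are not among established long noncoding RNAs only.

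**Figure D1:**
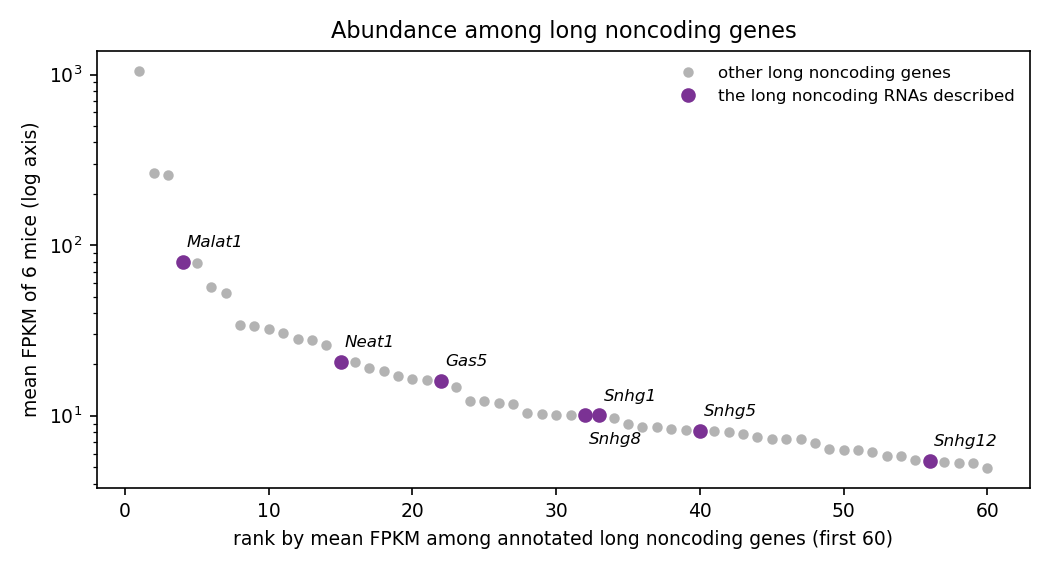
Mean FPKM of the 6 mice (vertical, log axis) against rank among annotated long noncoding genes (horizontal, first 60), with the genes described here in purple and others in grey. The 7 labelled members fall within these ranks, from *Malat1* at rank 4 to *Snhg12* at rank 56.

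Because the host genes are grouped by how their spliced RNA is made and turned over, their first bases are shown. Many are known to begin with a terminal oligopyrimidine (5′ TOP) tract, a run of C and T at the start of RNAs whose translation follows growth signals. RefSeq start sites on GRCm38.p6 were available for 5 of the 6 hosts, with 2 sites for *Gas5*. Each window holds 5 bases before and 25 from the annotated start, on the strand of the gene, and capitals mark the longest run of C and T.
*Gas5* site 1, chr1:161034596-161034625: CCCgcgagctcgacagcccggagccaaagg
*Gas5* site 2, chr1:161035161-161035190: tcagCCTTTCggagctgtgcggcattctga
*Snhg1*, chr19:8723482-8723511: tcggcctcaTTTTTCCTTgttcggggtaag
*Snhg5*, chr9:88522873-88522902: gaaccgggctcgTTCTTTTacgacggagcc
*Snhg8*, chr3:123508312-123508341: gaagTCTCTTTggctgcgatccgcctacga
*Snhg12*, chr4:132308673-132308702: agTCCTTTCTCgcttcatccgcggtccctg
In *Gas5* site 2, *Snhg8* and *Snhg12* the run spans the annotated start, and in *Snhg1* and *Snhg5* it begins 5 and 8 bases into the transcript. A run of at least 5 pyrimidines stood in 5 of these 6 windows, against 45.6% of 32851 windows of the same length over all genes. The letters CTTT, inside the run each time, stood in 4 of the 6 (*Gas5* site 2, *Snhg5*, *Snhg8* and *Snhg12*), against 11.2% of all windows. These matches describe the sequence only, and the start used in these mice was not measured.

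*Gas5* (ENSMUSG00000053332, chr1:161034422-161038539 on the plus strand of GRCm38, 25 annotated transcripts) is a host of 10 snoRNA genes, and its RNA is known to accumulate when growth stops. In the order of replicates 1, 2 and 3, which holds throughout, its level was 17.0, 17.3 and 17.2 FPKM in *Zfp90*fl/fl mice, and 14.5, 14.8 and 15.5 FPKM in *Zfp90*ΔIEC mice. All 3 *Zfp90*ΔIEC mice were below all 3 controls, and both groups were tight. The means were 17.2 ± 0.172 and 14.9 ± 0.488 FPKM (SD, n = 3 each). The log2 fold change was -0.19 (SE 0.052, 95% interval -0.31 to -0.07), and its adjusted p of 0.178 by limma did not pass the threshold. The unadjusted p was 0.00844, and a two-sided exact permutation test gave p = 0.1, the smallest that 3 against 3 allows. Its spread within groups was at percentile 2.59 of all tested genes, so *Gas5* was one of the most even genes between mice of a genotype. Groups that do not overlap were found in 21.3% of all tested genes (12.6% lower in *Zfp90*ΔIEC), and an unadjusted p under 0.05 in 14.6% (8.09% lower), against 1 of the 8 members for each, so the share of members was near or below the background. On the opposite strand, *Zbtb37* shares 428 bases of the *Gas5* locus, and it was near 0.5 FPKM in both groups (0.546 in *Zfp90*fl/fl and 0.504 in *Zfp90*ΔIEC mice). Leukocyte markers were also lower in *Zfp90*ΔIEC mice: 9 of 14 did not overlap between the groups, all in that direction. Only 3 of the 14 reached the filter for testing. Without the filter, 8.88% of 27805 genes were lower without overlap. Among the 9 were *Ptprc* (0.721 against 0.371 FPKM), *Itgam* (0.960 against 0.154 FPKM) and *Lyz2* (3.77 against 1.71 FPKM, adjusted p = 0.0782 by limma). *S100a8* was listed at 0 in all *Zfp90*ΔIEC mice. The sum of all 14 was 33.5 to 53.7 FPKM in *Zfp90*fl/fl and 25.8 to 37.3 FPKM in *Zfp90*ΔIEC mice. Most of it was *Ly6g* (21.9 to 44.7 FPKM), without which it was 8.76 to 10.0 FPKM and 3.59 to 4.40 FPKM. The part of these cells in the *Gas5* difference was not tested.

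*Snhg1* (ENSMUSG00000108414, chr19:8723475-8726443, plus strand), which holds 8 snoRNA genes, was measured at 9.88, 10.2 and 10.8 FPKM in *Zfp90*fl/fl and at 9.44, 10.5 and 9.56 FPKM in *Zfp90*ΔIEC mice. *Zfp90*ΔIEC replicate 2 lay within the control range, the other two below it. The log2 fold change was -0.06 (SE 0.0643, adjusted p = 0.713 by limma). The 95% interval of the difference, 0.863 to 1.07 as a fold of FPKM + 1, is the narrowest after that of *Gas5* among the 8 tested members.

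*Snhg8* (ENSMUSG00000104960, chr3:123507552-123508404, minus strand), a host of 1 snoRNA gene, was at 10.1, 10.8 and 9.91 FPKM in *Zfp90*fl/fl and 8.52, 10.2 and 10.9 FPKM in *Zfp90*ΔIEC mice. The lowest and the highest value both came from *Zfp90*ΔIEC mice, so the groups overlapped completely. Its log2 fold change of -0.06 (SE 0.0922, adjusted p = 0.804 by limma) turned to 0.03 without *Zfp90*ΔIEC replicate 1.

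*Snhg5* (ENSMUSG00000097195, chr9:88521050-88522929, minus strand), with 2 snoRNA genes, stood at 8.27, 8.32 and 8.44 FPKM in *Zfp90*fl/fl and at 7.14, 9.24 and 7.36 FPKM in *Zfp90*ΔIEC mice. *Snhg12* (ENSMUSG00000086290, chr4:132308623-132311024, plus strand), with 5 snoRNA genes, stood at 5.53, 5.45 and 6.14 FPKM and at 4.5, 6.26 and 4.82 FPKM. *Snhg6* (ENSMUSG00000098234, chr1:9941959-9944118, minus strand), with 1 snoRNA gene, stood at 2.06, 2.60 and 2.17 FPKM and at 1.51, 2.60 and 1.74 FPKM. In these 3 hosts the pattern was alike: *Zfp90*ΔIEC replicate 2 was the highest of all 6 mice (for *Snhg6* by less than the digits printed), and replicates 1 and 3 were below every control. The log2 fold changes were -0.08 (SE 0.0937) for *Snhg5*, -0.12 (SE 0.111) for *Snhg12* and -0.17 (SE 0.143) for *Snhg6*, with adjusted p of 0.754, 0.657 and 0.645 by limma. For *Snhg6* the 95% interval ran from 0.705 to 1.13 as a fold of FPKM + 1. At so low a level, the fold of the FPKM itself can lie further from no change than these limits.

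**Figure D2:**
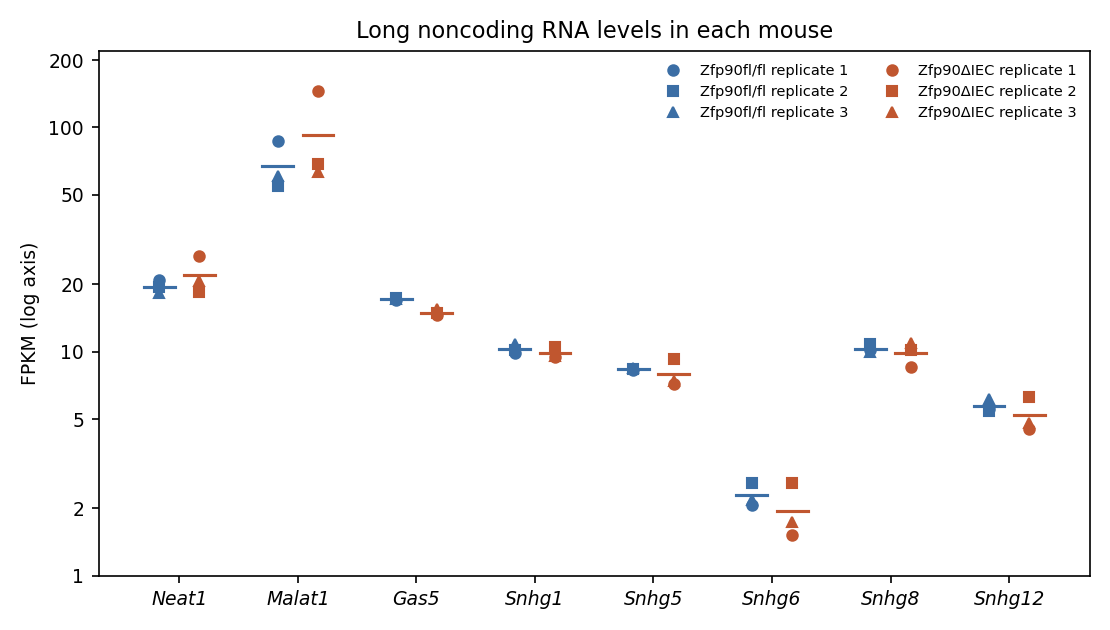
FPKM (vertical, log axis) of the 8 tested RNAs in each mouse, *Zfp90*fl/fl in blue and *Zfp90*ΔIEC in orange, with a marker shape for each replicate number and a bar at the group mean (n = 3 each). The groups of *Gas5* are separate, with 17.0 FPKM the lowest control and 15.5 FPKM the highest *Zfp90*ΔIEC value, and the *Malat1* value of *Zfp90*ΔIEC replicate 1 stands at 145 FPKM above the rest.

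All 6 hosts had a log2 fold change below 0, with a median of -0.10, where 57.2% of all tested genes were below 0 and their median was -0.02. Only the *Gas5* interval left out 0. *Zfp90*ΔIEC replicate 1 had the lowest value of the 6 mice for each of the 6 hosts, whereas it was the lowest mouse for 21.1% of all tested genes and for 17.7% of 305 tested long noncoding genes. The summed FPKM of the 6 hosts was 52.9, 54.7 and 54.7 in *Zfp90*fl/fl mice and 45.6, 53.6 and 49.9 in *Zfp90*ΔIEC mice. As a share of all FPKM it was 0.0124% ± 0.000358 and 0.0112% ± 0.000825 (SD, n = 3 each). The hosts sit on 5 chromosomes and share no position, but share their libraries, so that they are not independent observations of a mouse.

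From a wider list of snoRNA hosts, 14 were listed and 9 tested, and 0 passed in either direction, 8 of 9 with a log2 fold change below 0 and a median of -0.11. The most abundant were *Snhg18* (12.5 ± 0.922 FPKM in *Zfp90*fl/fl and 11.8 ± 0.303 in *Zfp90*ΔIEC, SD, n = 3 each) and *Epb41l4aos* (8.48 ± 0.472 and 7.69 ± 1.09), with adjusted p of 0.644 and 0.595 by limma. *Snora70*, itself a snoRNA, came next and was the one not below 0 (5.52 ± 1.36 and 5.65 ± 0.647 FPKM, adjusted p = 0.914). *Zfp90*ΔIEC replicate 1 was the lowest mouse for 4 of the 8 hosts among them, against 6 of 6 among the member hosts, and this difference was not tested.

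The 27 snoRNA genes annotated inside the 6 member hosts were listed with values from near 0 to 24.9 FPKM. *Snord80* in *Gas5* and *Snora16a* in *Snhg12* are each annotated more than once at overlapping positions, so the snoRNA counts are of annotated genes. The 27 genes are 60 to 137 bases long, shorter than a pair of the 150 bp reads. They also lie on the same strand as their host, so no snoRNA level was read from them. The protein partners were all above the filter. Of 8 proteins of snoRNP particles, 8 were tested and 0 passed, with a median log2 fold change of 0.03. The most abundant, *Nhp2*, *Snu13* and *Nop10*, had log2 fold changes of -0.02, 0.02 and 0.03, and adjusted p of 0.944, 0.904 and 0.916 by limma. *Nop56*, a core protein of the box C/D particle and the lone member with an unadjusted p under 0.05, was at 9.19, 10.4 and 10.6 FPKM in *Zfp90*fl/fl and at 11.5, 13.8 and 11.2 FPKM in *Zfp90*ΔIEC mice. *Nop56* did not overlap between the groups, in the direction opposite to the hosts, and its adjusted p was 0.305 by limma. *Gar1* was also higher without overlap, at 6.79, 5.66 and 6.34 FPKM and at 6.86, 7.54 and 6.87 FPKM (adjusted p = 0.405 by limma). Thus 2 of the 8 did not overlap, where 21.3% of all tested genes did not. Of 10 factors of nonsense-mediated decay, 10 were tested and 0 passed, 9 with a log2 fold change below 0 and a median of -0.03. *Upf1* and *Smg5*, among the most abundant, had log2 fold changes of -0.03 and -0.02, with adjusted p of 0.885 and 0.919. *Smg6*, the endonuclease of the pathway, was lower without overlap, at 6.12, 4.97 and 5.01 FPKM in *Zfp90*fl/fl and 4.49, 4.66 and 4.74 FPKM in *Zfp90*ΔIEC mice (log2 fold change -0.17, SE 0.0824, adjusted p = 0.397).

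*Malat1* (ENSMUSG00000092341, chr19:5795690-5802672, minus strand, 4 annotated transcripts) was the most abundant RNA of the set. Its level was 87.1, 54.6 and 60.9 FPKM in *Zfp90*fl/fl mice, and 145, 68.5 and 63.5 FPKM in *Zfp90*ΔIEC mice. *Zfp90*ΔIEC replicate 1 was above all others, and *Zfp90*ΔIEC replicates 2 and 3 lay within the control range. The means were 67.6 ± 17.3 and 92.3 ± 45.5 FPKM (SD, n = 3 each), with a log2 fold change of 0.37 (SE 0.326, 95% interval -0.40 to 1.14, adjusted p = 0.652 by limma). Without *Zfp90*ΔIEC replicate 1 the log2 fold change was -0.005 (95% interval -0.48 to 0.47, adjusted p = 0.993). The highest mouse had 2.65 times the level of the lowest, and the spread within groups was at percentile 98.3 of all tested genes, the opposite end from *Gas5*.

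*Neat1* (ENSMUSG00000092274, chr19:5824708-5845478, minus strand, 4 annotated transcripts) lies 22035 bases from *Malat1* on the same strand. Its values were 20.9, 19.4 and 18.3 FPKM in *Zfp90*fl/fl and 26.7, 18.5 and 20.6 FPKM in *Zfp90*ΔIEC mice. As for *Malat1*, *Zfp90*ΔIEC replicate 1 was the highest mouse, *Zfp90*fl/fl replicate 1 the next, and the groups overlapped. The means were 19.5 ± 1.32 and 21.9 ± 4.25 FPKM (SD, n = 3 each), and the log2 fold change was 0.14 (SE 0.13, 95% interval -0.16 to 0.45, adjusted p = 0.661 by limma). Without *Zfp90*ΔIEC replicate 1 it was -0.00037 (95% interval -0.20 to 0.20, adjusted p = 0.999). The value of a gene does not separate the short from the long isoform of *Neat1*, which share their first bases, and 3 short RNA genes annotated inside *Neat1* and 1 inside *Malat1* on the same strand could share their fragments.

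**Figure D3:**
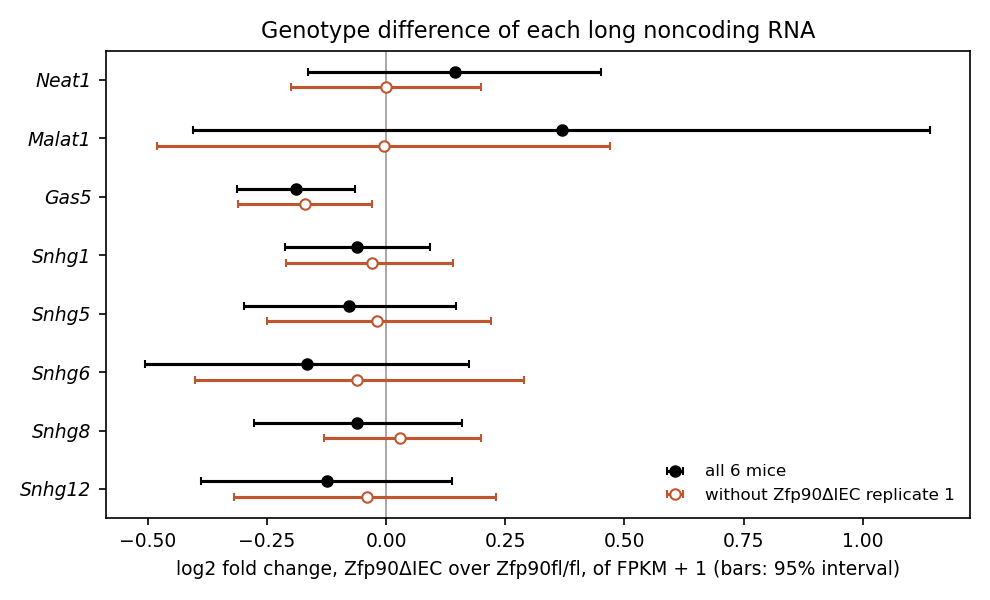
Log2 fold change of *Zfp90*ΔIEC over *Zfp90*fl/fl on the log2(FPKM + 1) scale (horizontal) for the 8 tested RNAs, with bars for the 95% interval, from all 6 mice (black) and without *Zfp90*ΔIEC replicate 1 (orange). *Malat1* and *Neat1* move from 0.37 and 0.14 to near 0, while *Gas5* stays below 0 at -0.19 and -0.17.

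The ratio of *Malat1* to *Neat1* was 4.16, 2.82 and 3.33 in *Zfp90*fl/fl and 5.43, 3.70 and 3.09 in *Zfp90*ΔIEC mice, so the ratio too was highest in *Zfp90*ΔIEC replicate 1. The sum of both RNAs relative to the sum of the 6 hosts was 2.04, 1.35 and 1.45 in *Zfp90*fl/fl and 3.76, 1.62 and 1.69 in *Zfp90*ΔIEC mice. *Zfp90*ΔIEC replicate 1 thus stood at both ends, with the highest nuclear-retained RNAs and the lowest hosts. It was the highest mouse for 17.9% of all tested genes.

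**Figure D4:**
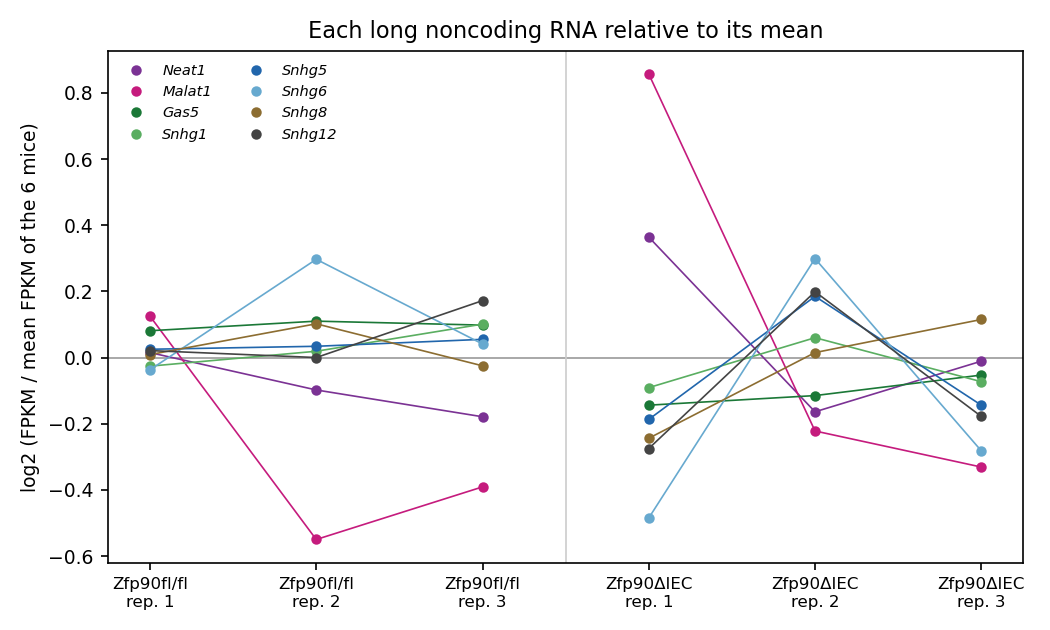
Log2 of each mouse's FPKM over the mean of the 6 mice (vertical) for the 8 tested RNAs, by mouse (horizontal), where lines only join the values of a gene. In *Zfp90*ΔIEC replicate 1, *Malat1* (0.86) and *Neat1* (0.36) are above 0 and the 6 hosts below 0, while *Gas5* is above 0 in each control and below 0 in each *Zfp90*ΔIEC mouse.

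Several measures of that library were close to those of the others. Its estimated depth was 27.9 M fragments, its median ratio scaling factor was 1.003 in a range of 0.986 to 1.020, and its mitochondrial RNA summed to 143533 FPKM in a range of 128825 to 144627. The median deviation of transcripts up to 1500 bases, on the log2 scale, was -0.05, the lowest of the 6 samples (up to 0.03), and that of transcripts over 5000 bases was 0.03, second to *Zfp90*fl/fl replicate 1 at 0.06. The sum of the 12 stromal markers was 2.54 FPKM there and 1.52 to 2.20 FPKM in the other 5 mice, with no marker at 0 in all samples. The sum of 14 leukocyte markers was 29.3 FPKM there, between those of the other *Zfp90*ΔIEC mice (25.8 and 37.3 FPKM). Without *Ly6g*, which makes up most of it, the sum was 3.59 FPKM there, the lowest of the 6 samples. The other *Zfp90*ΔIEC mice had 3.97 and 4.40 FPKM. The part of transcript length and of these cells in the *Malat1*, *Neat1* and host values was not tested. In bulk epithelium, fewer cells of a type and less RNA per cell cannot be told apart.

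The mRNAs of proteins of both nuclear bodies were also measured. Of 15 paraspeckle proteins, 15 were tested, 0 passed and 0 had groups that did not overlap, where 21.3% of all tested genes had such groups. The median log2 fold change of the 15 was 0.005. *Sfpq*, *Nono* and *Taf15*, RNA-binding proteins that assemble on *Neat1*, had log2 fold changes of -0.10, -0.02 and -0.02, with adjusted p of 0.531, 0.885 and 0.921 by limma. Of 13 nuclear speckle proteins, 13 were tested and 0 passed, 9 with a log2 fold change below 0 and a median of -0.01. The lowest was *Srsf1*, at 13.8, 13.5 and 17.5 FPKM in *Zfp90*fl/fl and 11.6, 13.7 and 10.4 FPKM in *Zfp90*ΔIEC mice, with overlap (log2 fold change -0.30, SE 0.127, adjusted p = 0.344). The splicing factors *Srsf2*, *Srsf5* and *Srsf3* had log2 fold changes of 0.07, 0.06 and -0.01, with adjusted p of 0.634, 0.657 and 0.934. In *Zfp90*ΔIEC replicate 1, with the most *Malat1*, *Srsf5* was at 75.7 FPKM against 66.5 to 70.2 FPKM in the other mice, and *Srsf3* at 48.8 FPKM was within their range.

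*Kcnq1ot1* (ENSMUSG00000101609, chr7:143203458-143296549, minus strand, a single transcript of 93092 bases) is the antisense RNA that silences neighbouring genes on the paternal chromosome in the placenta and embryo. Its FPKM was 0.0674, 0.0527 and 0.0432 in *Zfp90*fl/fl and 0.0329, 0.0345 and 0.0309 in *Zfp90*ΔIEC mice. All 3 *Zfp90*ΔIEC mice were below all 3 controls. The means were 0.0544 ± 0.0122 and 0.0328 ± 0.00176 FPKM (SD, n = 3 each), 39.8% lower in *Zfp90*ΔIEC mice. Over a transcript of this length these values stand for an estimated 165, 137 and 115 fragments and 85.3, 90.8 and 82.4 fragments. The two-sided exact permutation p was 0.1, again the smallest possible, and in the limma test without a filter the adjusted p was 0.533 (log2 fold change -0.03 with a pseudocount of 1 FPKM, which hides changes at such levels). The part of the leukocytes described beside *Gas5* in this difference was not tested either. Without the filter, 8.88% of 27805 genes were lower without overlap and 0.0539% passed the adjusted threshold.

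The whole of *Kcnq1ot1* lies inside *Kcnq1*, a potassium channel gene on the opposite strand. *Kcnq1* was at 20.6 to 21.5 FPKM in *Zfp90*fl/fl and at 22.1, 23.5 and 24.2 FPKM in *Zfp90*ΔIEC mice. Its groups did not overlap either, in the direction opposite to *Kcnq1ot1*, and its log2 fold change of 0.14 did not pass (adjusted p = 0.327 by limma). Whether fragments were counted by strand is not given in the sources used here, so fragments from *Kcnq1* introns and from *Kcnq1ot1* cannot be told apart.

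*H19* (ENSMUSG00000000031, chr7:142575529-142578143, minus strand), a growth-related RNA of the embryo that is silenced in most adult tissues, was listed at 0 in 5 mice and at 0.0524 FPKM in *Zfp90*fl/fl replicate 2, which is about 3.36 fragments on its longest transcript. No fold is given for values listed at 0. At this depth its presence in the other mice was not detectable. *Igf2*, its reciprocally imprinted neighbour, was also low, at 0.187 FPKM in *Zfp90*fl/fl and 0.209 FPKM in *Zfp90*ΔIEC mice.

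Of 16 genes of the same imprinted domains, 8 were tested and 0 passed, with a median log2 fold change of 0.05. *Slc22a18* and *Nap1l4*, with *Kcnq1* the most abundant, had log2 fold changes of 0.05 each and adjusted p of 0.885 and 0.812 by limma. *Phlda2*, an imprinted inhibitor of placental growth, was named after its values were seen, at 0.849, 0.549 and 0.772 FPKM in *Zfp90*fl/fl and 1.34, 1.59 and 1.14 FPKM in *Zfp90*ΔIEC mice. It was higher in 3 of 3 mice, with a log2 fold change of 0.45 (SE 0.108) and an adjusted p of 0.134. *Cdkn1c*, a cell cycle inhibitor of the *Kcnq1ot1* domain, was below the filter at 0.822 and 0.930 FPKM, with overlap.

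Of 13 coding genes next to the members, 8 were tested and 0 passed, with a median log2 fold change of -0.01. *Phactr4* beside *Snhg12* and *Slc3a2* near *Snhg1* had log2 fold changes of -0.06 and 0.12, with adjusted p of 0.667 and 0.537 by limma. *Wdr74*, also beside *Snhg1* and named after its values were seen, was at 4.84, 11.7 and 5.67 FPKM in *Zfp90*fl/fl and at 12.5, 13.0 and 13.4 FPKM in *Zfp90*ΔIEC mice. It had an adjusted p of 0.242 with all mice and 0.018 without *Zfp90*fl/fl replicate 2, the control with the high value. *Snhg1* did not move with it: in *Zfp90*fl/fl replicates 1 and 2, where *Wdr74* was at 4.84 and 11.7 FPKM, *Snhg1* was at 9.88 and 10.2 FPKM.

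For other known long noncoding RNAs, a list of 32 names led to 30 genes, since some names stand for the same gene (*Oip5os1* and Cyrano are both *1700020I14Rik*). Of these genes 12 were tested and 0 passed, with a median log2 fold change of -0.18. *Rn7sk*, the RNA that holds the elongation factor P-TEFb inactive, was at 30.4, 34.2 and 39.5 FPKM in *Zfp90*fl/fl and 16.7, 27.7 and 30.5 FPKM in *Zfp90*ΔIEC mice (log2 fold change -0.50, SE 0.217, adjusted p = 0.361 by limma), lowest in *Zfp90*ΔIEC replicate 1. *2900097C17Rik* (Norad), which binds Pumilio proteins, was level at 28.5 and 27.8 FPKM (adjusted p = 0.836). *Tug1* was at 14.8, 15.4 and 16.3 FPKM and at 13.9, 13.8 and 13.9 FPKM, without overlap, with a log2 fold change of -0.15 (adjusted p = 0.295). *Tug1* was 1 of 5 genes of the list that were lower without overlap and had an unadjusted p under 0.05, of 12 tested, where 12.6% of all tested genes were lower without overlap and 8.09% were lower at an unadjusted p under 0.05. The other 4, named after their values were seen, were *Peg13*, *Hottip*, *Hoxa11os* and *1700020I14Rik* (Cyrano), with adjusted p of 0.137, 0.183, 0.26 and 0.262. Over all 305 tested genes classed as long noncoding, 0 passed, 56 (18.4%) had an unadjusted p under 0.05, 22 higher and 34 lower (11.1%), where all tested genes gave 14.6% and 8.09% lower. The median log2 fold change of these 305 genes was -0.04, against -0.02 for all tested genes.

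The tested genes whose pattern over the 6 mice was most like that of a member are given as a description, from 6661 genes with a mean of at least 5 FPKM, by Pearson's r of log2(FPKM + 1). Nearest to *Malat1* were *Etnk1* (r = 0.989), *Hspa4l* (0.989) and *Msh6* (0.986), and nearest to *Neat1* were *Maco1* (0.998), *Zfp518a* (0.988) and *AU040320* (0.984). All 6 were highest in *Zfp90*ΔIEC replicate 1, such as *Hspa4l*, a heat shock protein, at 8.92 FPKM there and 5.35 to 6.88 FPKM in the other mice. Nearest to *Gas5* were *Sh2d4a* (0.996), *Gm4294* (0.996) and *Marcksl1* (0.994), each lower in all 3 *Zfp90*ΔIEC mice, for example *Marcksl1* at 7.92, 7.84 and 8.06 FPKM in *Zfp90*fl/fl and 5.38, 5.65 and 6.24 FPKM in *Zfp90*ΔIEC mice. Nearest to *Snhg1* were *Cebpg* (0.985), *Rab5if* (0.982) and *Fam83e* (0.978). The 6 points share their libraries, and the genes named are the highest of all those searched.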

How the data were processed

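Libraries were read as pairs of 150 bp, and for each sample the authors deposited a file with 1 FPKM value for each gene. The submitters' processing notes name FastQC, STAR 2.5, Cuffnorm, DESeq 1.22.1 and mm9, whereas the methods name TopHat and Cuffdiff and a human genome, and the files list mouse Ensembl identifiers without coordinates. Symbols and GRCm38 positions come from the GENCODE M21 annotation, which matched 52403 of 52550 identifiers, and the gene models behind the FPKM are not given in the sources used here. The files give no depth: it was estimated from steps of low values in single-transcript genes (65.3% to 70.5% within 0.1 of a whole fragment), and fragment numbers are therefore approximate.

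From the deposited FPKM, log2(FPKM + 1) was tested with limma 3.58.1 in R 4.3.3 (intensity trend, Benjamini-Hochberg adjustment, threshold 0.05) over the 11564 genes that reached 1 FPKM in 3 or more samples. Genes below this filter take their values from the same test over 27805 genes above 0 in any sample. Intervals cover 95%, and the single exact permutation tests used scipy 1.17.1. The test script was checked on data with known changes first. The limma p-values set the difference between genotypes against the spread between 3 mice per genotype, moderated over all genes in the fit. Tables and figures used matplotlib 3.10.9, numpy 2.4.6 and pandas 2.3.3 in Python 3.11.15.

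The members and the gene lists were chosen with earlier results of these data known. Besides the members, the 3 most abundant tested genes of each list are named, with the genes most like a member in pattern, and all others were named after their values were seen. The results of some genes that this rule names are not reported here. Alternatives were a pseudocount of 0.1 FPKM, no filter, quantile, median ratio and rescaled values, no trend, the replicate number as a block, and leaving out each sample. The genotype field of the labels goes against the title in *Zfp90*ΔIEC replicates 2 and 3. The paper gives 8 weeks of age and another DSS percentage than the labels.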

Additional observations from a re-analysis of the deposited data

How the results depend on the processing

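Of the 8 tested members, 0 passed in any of the 13 alternatives, in which the lowest adjusted p among them ranged from 0.159 to 0.388. The log2 fold change of *Gas5* stayed between -0.21 and -0.16. Of 128 recomputed fold changes of members, 3 changed direction, all without *Zfp90*ΔIEC replicate 1: *Malat1* to -0.005 (range to 0.583 over samples left out), *Neat1* to -0.00037 (to 0.252) and *Snhg8* to 0.034 (from -0.129). The ratio of the nuclear-retained share between the genotypes ranged from 0.96 to 1.46 when 1 sample was left out, below 1 without *Zfp90*ΔIEC replicate 1, and that of the host share from 0.867 to 0.934. Over all genes, 23 calls (8 higher, 15 lower) became 13 (4 and 9) with a pseudocount of 0.1 FPKM, 15 (5 and 10) without a filter, 47 (19 and 28) with the replicate block, and 10 to 21 when 1 sample was left out, fewest without *Zfp90*fl/fl replicate 2. In the gene lists, 0 calls became 1 for coding neighbours without *Zfp90*fl/fl replicate 2 (*Wdr74*, range 0 to 1 over samples left out), 1 for epithelial markers with the replicate block (*Car1*) and 1 for leukocyte markers without a filter (*Itgam*). The cause of these changes was not tested. Deviations of same-numbered samples correlated at 0.194, 0.11 and 0.078, so the numbers were not taken as pairs, although each sample correlated best with its own number, a hint from the data and not the design. With the block, the adjusted p was 0.216 for *Gas5* and 0.286 for *Malat1*, and no member call changed. With 3 mice per genotype, differences of the size seen in *Malat1* are within its interval in either direction, and *H19* and *Kcnq1ot1* rest on few fragments per kilobase.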

Other observations

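*Meg3*, an imprinted long noncoding RNA that was below the filter and was chosen after its values were seen, was at 0.252, 0.301 and 0.310 FPKM in *Zfp90*fl/fl and 0.724, 0.347 and 0.325 FPKM in *Zfp90*ΔIEC mice. Like *Malat1* and *Neat1* it was highest in *Zfp90*ΔIEC replicate 1, although its groups did not overlap, and its adjusted p was 0.679 in the limma test without a filter. *Snhg14*, a long host of snoRNAs in an imprinted domain, was below the filter at 0.305, 0.290 and 0.262 FPKM in *Zfp90*fl/fl and 0.237, 0.218 and 0.216 FPKM in *Zfp90*ΔIEC mice, lower without overlap (adjusted p = 0.492). *Snhg10* went the other way, at 0.0733, 0.0673 and 0.200 FPKM and at 0.253, 0.263 and 0.204 FPKM (adjusted p = 0.405). *Snhg14* and *Snhg10* were likewise chosen after their values were seen.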
